A study of Mus musculus with 5 samples.

Results

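The chromatin of 9 genes of the mesenchymal state of glioblastoma was followed across 4 ChIP-seq maps of cultured mouse cells. The genes were taken by name (Cd44, Tnc, Tgfbi, Timp1, Cebpb, Cebpd, Stat3, Runx1 and Fn1), which makes 9 of the 21887 protein-coding genes of the annotation, and every called peak within 50 kb of the body of each gene was collected. The maps come from neural stem cells (NSC) and brain tumour stem cells (BTSC), with 1 library per group. In either culture the cells used for TLX carried a retroviral copy of TLX with a 3xTY1 tag and had been drug-selected, and the tag was precipitated with a TY1 antibody. Untransduced cells of either culture were used to map H3K27ac, an acetylated histone H3 that is found at promoters and enhancers in use. The series also has a control library without antibody from cells with an empty MSCV-neo vector, whose culture is not named and which was not analysed here. No TY1 map of cells without the tag was used. The labels call the NSC primary mouse cells. They do not say how the tumour of the BTSC arose, whether a culture is a clone, or which promoter drives the transgene, and the growth protocol of the BTSC samples repeats that of the NSC samples.

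TLX, encoded by Nr2e1, is an orphan nuclear receptor that keeps neural stem cells in an undifferentiated, dividing state and often acts as a repressor. The mesenchymal state is a recurrent expression state of glioblastoma, marked by matrix, adhesion and wound-response genes. In human glioblastoma the transcription factors C/EBPβ, C/EBPδ, STAT3 and RUNX1 have been described as its regulators, and CD44, tenascin C, TGFBI, TIMP1 and fibronectin are among its markers.

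Across the 9 genes H3K27ac did not move in a common direction. Runx1 had far more acetylated sequence in BTSC, including at a start that carried none in NSC, and Stat3 and Fn1 had 1.52 and 1.51 times as much, or 1.4 and 0.912 times relative to their chromosomes. Tnc and Tgfbi had more in NSC, by 1.91 and 2.31 times, and also held 7 of the 12 TLX peaks of the NSC list near these genes. Cebpb, Cebpd, Cd44 and Timp1 differed by less than 1.5-fold.

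The lists hold 7458 TLX peaks in NSC, 1436 TLX peaks in BTSC, 31266 H3K27ac peaks in NSC and 31597 H3K27ac peaks in BTSC. Sequencing depth is unknown, so a peak missing from a list was not called at that library's depth, which does not show that the protein or mark was absent. Each culture gave a single library per map, so there is no replicate error and no test between cultures. A mark in more cells and a wider mark per cell cannot be told apart in such maps. The fold of a peak is the authors' enrichment over the caller's background and places a peak within its own list. H3K27ac lay within 1 kb of a start of 6 of 8 neural stem cell marker genes in either culture, Sox2 and Nes among them. Pax6 and Msi1 had none there in either. Over all genes the share was 52.8% in NSC and 52.2% in BTSC. The windows of these 8 genes summed to 217036 acetylated bp in NSC and 208484 bp in BTSC. Of the 8, Sox9 (12069 and 19376 bp) had at least 1.5-fold more in BTSC and 0 had more in NSC, against 19.6% and 12.5% of all genes. H3K27ac lay at a start of 1 of 8 microglia and macrophage markers (Cd68), 0 of 5 endothelial markers and 1 of 8 fibroblast and pericyte markers (Prrx1) in either culture. The windows of Pdgfrb, Col3a1, Dcn, Lum, Twist1, Itgam and Kdr held 0 acetylated bp in both. Some other markers of the microglia, endothelial and fibroblast lists differed by at least 1.5-fold. More in NSC was seen at Cx3cr1 (5995 and 3281 bp in NSC and BTSC), P2ry12 (2762 and 1151 bp) and Pecam1 (11697 and 7580 bp). Tek (2546 and 0 bp) and Rgs5 (1285 and 751 bp) also had more in NSC. Csf1r (1680 and 2577 bp) and Cldn5 (2992 and 5525 bp) had more in BTSC. Summed over each list, acetylated bp in NSC and BTSC were 45512 and 45688 for microglia and macrophage, 19307 and 15276 for endothelium, and 29741 and 32435 for fibroblasts and pericytes. Calls were made for markers with at least 1000 bp in 1 culture. In the same order of lists, 2 of 7, 2 of 4 and 1 of 3 had more in NSC, against 12.5% of all genes. More in BTSC was seen at 1 of 7, 1 of 4 and 0 of 3, against 19.6%. The part of such cells in the results was not tested.

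The promoters of 3 genes carry the findings on gene starts and are printed as the 250 bases before the start, 5′ to 3′ on the gene's strand, with each CpG in capitals. They come from the RefSeq promoter table of GRCm38.p6, the assembly of mm10, which matched 7 of the 9 genes and lacks Cebpd and Fn1. The Cebpb promoter (chr2:167688665-167688914, plus strand) is shown because a TLX peak of NSC lay on it. The proximal Runx1 promoter (chr16:92697330-92697579, minus strand) is shown because it was acetylated in BTSC only. The distal Runx1 promoter (chr16:92826075-92826324, minus strand) and the Tgfbi promoter (chr13:56609336-56609585, plus strand) are shown because neither culture had H3K27ac there.
Cebpb: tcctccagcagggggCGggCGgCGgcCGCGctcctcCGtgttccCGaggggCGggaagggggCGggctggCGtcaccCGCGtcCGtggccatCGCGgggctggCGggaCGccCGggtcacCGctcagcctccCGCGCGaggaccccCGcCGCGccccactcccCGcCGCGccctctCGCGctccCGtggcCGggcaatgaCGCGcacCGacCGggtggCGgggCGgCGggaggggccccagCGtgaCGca
Runx1 proximal: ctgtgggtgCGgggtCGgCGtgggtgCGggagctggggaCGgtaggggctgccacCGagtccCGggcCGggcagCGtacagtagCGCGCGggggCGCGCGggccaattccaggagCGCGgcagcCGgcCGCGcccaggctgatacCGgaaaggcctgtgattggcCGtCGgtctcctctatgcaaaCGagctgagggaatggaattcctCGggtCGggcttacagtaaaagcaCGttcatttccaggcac
Runx1 distal: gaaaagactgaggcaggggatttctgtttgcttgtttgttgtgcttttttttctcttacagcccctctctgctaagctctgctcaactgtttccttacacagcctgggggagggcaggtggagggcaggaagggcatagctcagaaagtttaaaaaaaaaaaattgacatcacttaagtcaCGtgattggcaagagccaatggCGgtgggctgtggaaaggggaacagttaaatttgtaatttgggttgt
Tgfbi: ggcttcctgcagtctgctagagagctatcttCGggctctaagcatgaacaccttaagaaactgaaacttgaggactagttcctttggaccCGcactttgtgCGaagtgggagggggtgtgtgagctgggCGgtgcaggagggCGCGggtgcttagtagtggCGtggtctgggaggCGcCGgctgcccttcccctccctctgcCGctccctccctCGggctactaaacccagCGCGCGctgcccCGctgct

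The Cebpb stretch holds 41 CpG at 81.6% G and C, the proximal Runx1 stretch 27 at 67.6%, the Tgfbi stretch 15 at 62.4% and the distal Runx1 stretch 2 at 45.6%. The medians over all 32851 promoters of the table are 6 CpG and 52.4%. For description, 5 short motifs were searched on both strands of these 250 bases: the TLX hexamer AAGTCA, the AP-1 site TGANTCA, the C/EBP site TTGCNNAA, the STAT site TTCNNNGAA and the RUNX site TGTGGT. They occur in 13.1%, 6.75%, 9.56%, 7.02% and 14% of all promoters. The first 2 share their last letters, TCA, but differ before them, so the same stretch cannot match both. Among the 9 starts of the 7 matched genes there was 1 match, an AAGTCA whose first base lies 75 bp before the distal Runx1 start. No TLX peak lay near that start, and the Cebpb promoter under a TLX peak held none of the 5 motifs.

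TLX peaks were called near 5 of the 9 genes in NSC, against 42.1% of all protein-coding genes by the same 50 kb rule, and near 3 of 9 in BTSC, against 10.2%. Tgfbi and Cebpd had one in both lists, where the background is 9.40%. The BTSC count fell to 1 gene, Cebpd, with a 10 kb window or when a peak counted only for its nearest gene, since the other 2 peaks lay nearest to Smad5 and Atic. There were 12 peaks in NSC, with folds from 3.63 to 14.2 (median 5.25, against 4.78 over the list), and 3 in BTSC, with folds from 4.12 to 8.24 (median 5.98, against 5.26). Of the NSC peaks 12 of 12 overlapped H3K27ac of NSC by at least 1 bp, against 91.6% of the whole list. This is 100% (exact Clopper-Pearson 95% interval 73.5 to 100, counting error only). In BTSC 2 of 3 did, against 93.2%. In NSC 11 of 12 (91.7%) had their summit inside H3K27ac, and with peaks of −log10 q of at least 5 the overlap was 9 of 10. Cut to the 1436 strongest peaks, as many as the BTSC list has, the NSC list kept 3 peaks at 2 of the genes, Tnc and Tgfbi.

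H3K27ac was present within 50 kb of 9 of 9 genes in both cultures, against 77.9% of genes in NSC and 76.9% in BTSC. It lay within 1 kb of a start of 6 genes in NSC and 7 in BTSC, against 52.8% and 52.2%; for Cebpd and Fn1, whose strand the table does not give, either gene end counted. The genes had 37 H3K27ac peaks in NSC and 40 in BTSC, of which 29 (78.4%, interval 61.8 to 90.2) and 30 (75.0%, 58.8 to 87.3) overlapped a peak of the other culture. These shares are 79.0% and 76.8% over the whole lists. Covered length was compared among the 16738 protein-coding genes with at least 1000 bp in 1 culture. At least 1.5-fold more in BTSC was seen for 3 of 9 genes, against 19.6% of all, and at least 1.5-fold more in NSC for 2 of 9, against 12.5%. Relative to the chromosome's own ratio, 1 of the 3, Runx1, remained higher in BTSC. The median ratio of BTSC to NSC was 1.20 over the 9 genes and 1.08 over all genes. Stat3 at 1.52 and Fn1 at 1.51 were just inside the 1.5-fold rule, and Cd44 at 1.35 was the nearest outside it.

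**Figure D1:**
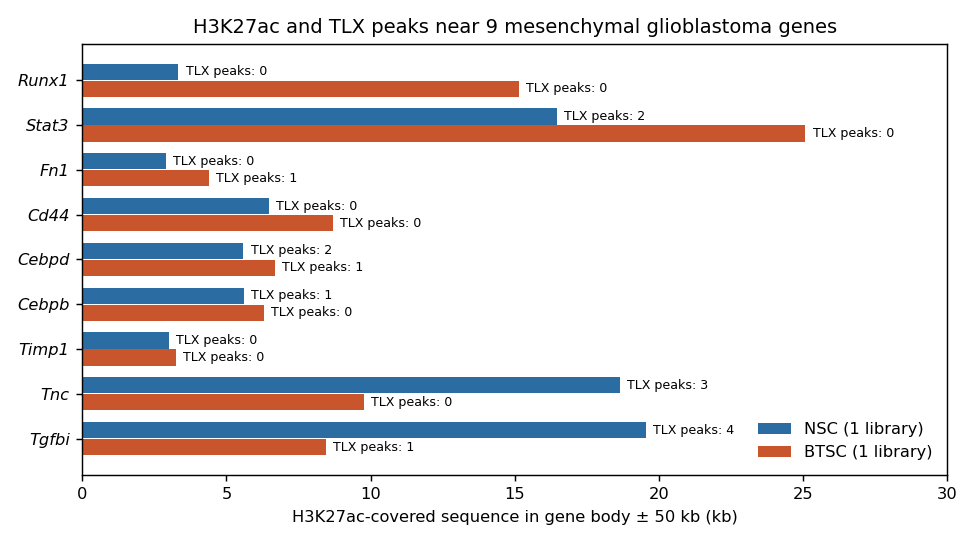
Bars give the H3K27ac-covered length (kb) in the gene body and 50 kb to either side, in NSC (blue) and BTSC (red), 1 library each, ordered by the ratio of BTSC to NSC; the number of TLX peaks of that culture stands beside each bar. Runx1 (3331 bp in NSC, 15152 bp in BTSC) and Stat3 lead towards BTSC, and Tgfbi and Tnc towards NSC.

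**Figure D2:**
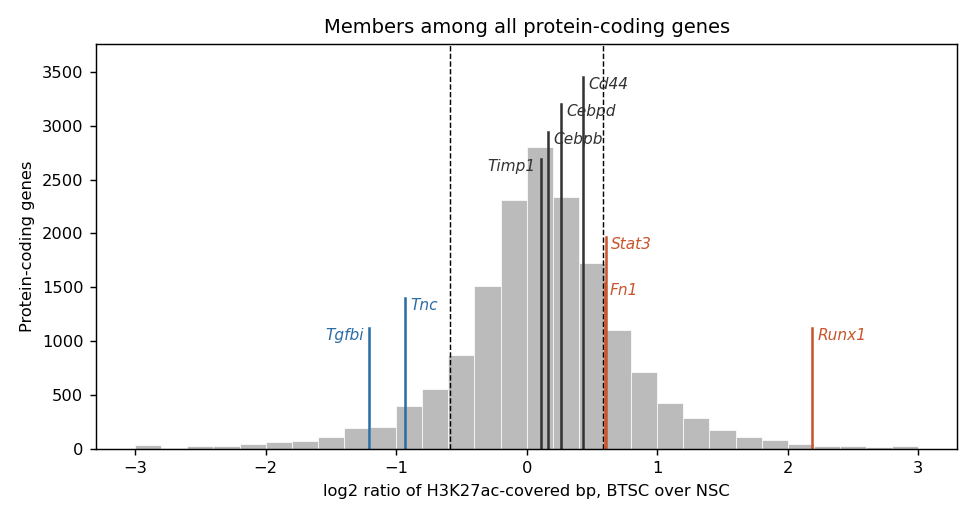
The histogram shows the log2 ratio of H3K27ac-covered bp, BTSC over NSC, for the 16308 protein-coding genes with coverage in both lists and at least 1000 bp in 1; values beyond 3 in either direction are drawn in the end bins, dashed lines mark 1.5-fold, and coloured lines mark the genes (the line heights carry no value). Runx1 lies at percentile 98.6 of the genes compared, and Tnc and Tgfbi at percentiles 7.07 and 5.11.

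Of the regulators, Runx1 differed most. Runx1 encodes the DNA-binding subunit of core-binding factor, best known from blood formation, and is transcribed from a distal and a proximal promoter. The gene (chromosome 16, 92601466 to 92826074, 224609 bp) had 3331 acetylated bp in NSC in 2 peaks and 15152 bp in BTSC in 4 peaks, a ratio of 4.55. All 15152 bp of BTSC lay inside the gene, where NSC had 2561 bp. A BTSC peak of 3010 bp with a fold of 3.74 (92695740 to 92698749) covered the proximal start at 92697329, whose promoter is printed above. The nearest NSC peak was 41930 bp from that start. No other gene of the 9 had an acetylated start in 1 culture only, a pattern seen for BTSC in 1.90% of all genes. The distal start at 92826074 was 41374 bp from the nearest NSC peak and 127325 bp from the nearest BTSC peak.

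Further into Runx1, both cultures had a peak, 43210 bp past the proximal start in NSC and 44060 bp in BTSC, 2561 bp wide with a fold of 4.05 in NSC and 4048 bp wide with a fold of 6.56 in BTSC. Of the NSC peak 95.9% was also covered in BTSC. Peaks of 2675 bp (fold 3.72) and 5419 bp (fold 5.60) lay nearer the end of the gene in BTSC alone, and a 770 bp peak (fold 2.67) lay before the distal start in NSC alone. No TLX peak was within 50 kb in either list, and the nearest was 400112 bp from the gene in NSC and 400049 bp in BTSC.

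Stat3, the transcription factor downstream of IL-6 family cytokines, lies on chromosome 11 (100886806 to 100939594). It had 9 H3K27ac peaks in each list, covering 16452 bp in NSC against 25084 bp in BTSC. The difference lay inside the gene, which held 7229 bp in NSC against 18708 bp in BTSC, whereas its flanks held more in NSC (9223 against 6376 bp). At the start, the acetylated peak was 3085 bp wide in NSC and 5609 bp in BTSC, and its fold was 11.7 in either list, the highest of any H3K27ac peak near these genes. In the far part of the gene, a BTSC peak of 10120 bp (100889918 to 100900037, fold 6.09) spanned a stretch that held NSC peaks of 653 and 2402 bp.

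There were 2 TLX peaks at Stat3 in NSC and none within 50 kb in BTSC. The stronger, 7372 bp upstream of the start (100946702 to 100947370), had a fold of 5.35, and the weaker, inside the gene (100898056 to 100898501), a fold of 3.82, at percentile 16.6 of its list. Both lay in regions acetylated in both cultures. The window also reaches Stat5a, Stat5b and Cavin1. With only the peaks that have Stat3 as their nearest gene, the lengths were 10807 bp (NSC) and 20952 bp (BTSC). Relative to the whole of chromosome 11 the ratio was 1.4, under the 1.5-fold rule.

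Cebpb and Cebpd encode basic leucine zipper factors that drive acute-phase and wound-response genes, and both are short genes with acetylated starts in both cultures. At Cebpb (chromosome 2, 167688915 to 167690432) the peak over the start was 1260 bp wide in NSC (fold 5.47) and 1200 bp in BTSC (fold 4.36). The summed lengths in the window were 5603 and 6287 bp, a ratio of 1.12, and 87.2% of the bp covered in either culture were covered in both. The 2 further peaks of each list lay over Tmem189. A TLX peak of NSC (167688700 to 167689524, fold 4.21, percentile 30.2 of the list) had its summit 145 bp before the start and covered 215 of the 250 printed promoter bases. The nearest BTSC peak was 197258 bp away.

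Cebpd (chromosome 16, 15887286 to 15889545) was covered over its whole 2260 bp in both cultures, by a peak of 3760 bp in NSC (fold 10.4) and 4421 bp in BTSC (fold 10.7). It was the only one of the 9 genes with TLX within 1 kb of a start in both lists. The TLX peak was 1055 bp wide in NSC (15887093 to 15888147, fold 5.16) and 803 bp in BTSC (15887112 to 15887914, fold 4.12, percentile 14.3 of the list). TLX at a start was thus called for 2 of the 9 genes in NSC, Cebpb and Cebpd, against 13.8% of all genes, and for 1 in BTSC, against 1.97%. A second NSC peak (fold 5.35) overlapped the neighbouring gene Mzt2, 23632 bp from Cebpd. The acetylated peak at Cebpd also overlaps the end of Spidr, so the mark there cannot be assigned to either gene. In the window of Cebpd 5585 bp were acetylated in NSC and 6689 bp in BTSC, of which 5531 bp were shared.

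**Figure D3:**
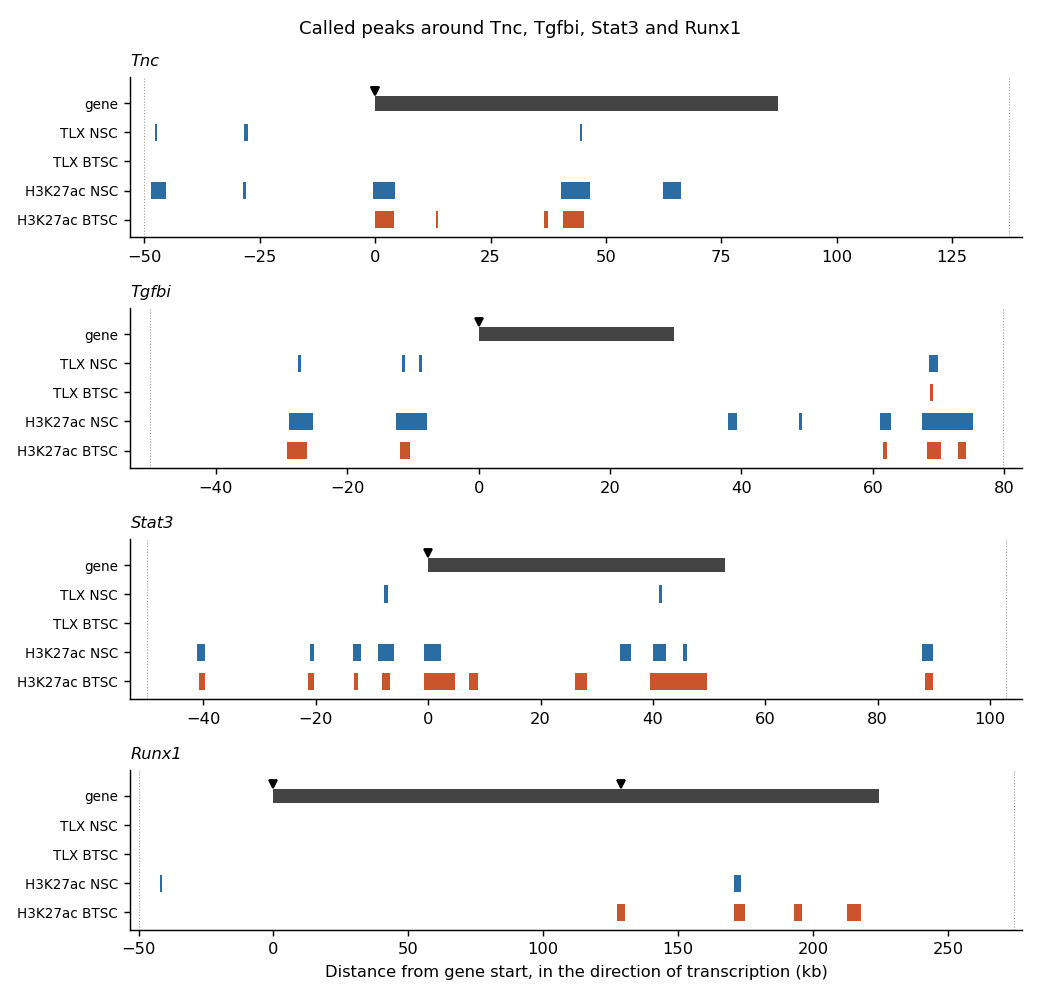
Called peaks around Tnc, Tgfbi, Stat3 and Runx1 by distance from the gene start in the direction of transcription (kb), with TLX and H3K27ac of NSC in blue and of BTSC in red; triangles mark gene starts of the promoter table, dotted lines the 50 kb limits, and peaks narrower than 0.5 kb are drawn 0.5 kb wide. BTSC peaks cover the second Runx1 start, where NSC has none, and the upstream regions of Tnc have peaks in NSC only.

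Tnc encodes tenascin C, a matrix glycoprotein of neural stem cell niches and of glioma stroma. The gene (chromosome 4, 63959785 to 64047015) had 18663 acetylated bp in NSC in 5 peaks and 9771 bp in BTSC in 4 peaks. Its start was acetylated in both, over 4858 bp in NSC (fold 6.19) and 4007 bp in BTSC (fold 4.55). Upstream of the gene NSC had 4315 bp and BTSC had 0. Inside the gene a region of 6136 bp in NSC (64000528 to 64006663, fold 7.89) was covered over 73.1% of its length in BTSC, by a peak with a fold of 3.04.

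All 3 TLX peaks at Tnc were in the NSC list, and no BTSC peak lay within 1 Mb of the gene, the nearest being 1346644 bp away. The strongest (64094173 to 64094708, fold 7.08, percentile 86.2) was 47460 bp upstream of the start, in an NSC region of 3324 bp that had no H3K27ac peak in BTSC. The next (64074606 to 64075367, fold 5.58) was 27898 bp upstream, overlapping an NSC region of 438 bp that also had none in BTSC. The third (64002214 to 64002634, fold 4.97) lay inside the gene, in the region acetylated in both cultures. All 3 also overlap a non-coding gene of the table, 8030451A03Rik.

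Tgfbi encodes a secreted matrix protein that is induced by TGF-β and binds integrins. The gene itself (chromosome 13, 56609586 to 56639359) had 0 acetylated bp in both cultures, and the nearest H3K27ac peak was 7867 bp from the start in NSC and 10523 bp in BTSC. The flanks held 19549 bp in NSC against 8448 bp in BTSC, with 11451 bp covered in NSC only and 350 bp in BTSC only. Upstream, an NSC region of 4640 bp (56597080 to 56601719) was covered over 31.1% in BTSC and a second of 3642 bp over 74.2%. Downstream, the widest region was 7738 bp in NSC (56677074 to 56684811, fold 8.94), where BTSC had 2 peaks of 2091 and 1135 bp.

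Tgfbi had 4 TLX peaks in NSC and 1 in BTSC, the most of the 9 genes in NSC. The strongest TLX peak near any of the 9 genes lay downstream of it (56678137 to 56679485, fold 14.2, rank 81 of 7458), and the BTSC peak (56678243 to 56678813, fold 8.24, rank 146 of 1436) overlapped it. That site is 38778 bp from Tgfbi, overlaps the non-coding genes Gm32965 and Gm32910, and has Smad5 as its nearest protein-coding gene. The other 3 NSC peaks were 8863, 11459 and 27276 bp upstream of the start, with folds of 4.21, 3.63 and 6.88. The first and second of these lay in the 4640 bp region, and the summit nearest the gene was outside what BTSC had acetylated.

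Over the 9 genes, 11 of the 37 NSC H3K27ac peaks held a TLX peak of NSC, which is 29.7% (interval 15.9 to 47.0) against 20.2% of the whole list. These 11 were wider, with a median of 3324 bp against 1572 bp for the other 26, as over the whole list (2528 and 1409 bp). Of their 37936 bp, 59.0% were also covered in BTSC, and of the 45744 bp of the others 68.9%. Over the whole list the shares were 82.6% with TLX and 70.1% without. Among the TLX-holding regions the share ranged from 0% at both upstream regions of Tnc to 100% at the inner region of Stat3 and the Mzt2 region near Cebpd. Of the 5 genes with TLX in NSC, 2 had at least 1.5-fold more H3K27ac in NSC, against 11.2% of all genes with such a peak, and 1 had more in BTSC, against 17.0%. Of the 4 genes without, 0 had more in NSC and 2 had more in BTSC, against 13.9% and 22.9% of all genes without such a peak.

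Fn1 encodes fibronectin, a matrix protein bound by integrins, and lies on chromosome 1 (71585473 to 71653280). It had 2895 acetylated bp in NSC in 3 peaks and 4382 bp in BTSC in 5 peaks. A peak at the upper gene end was 1263 bp wide in NSC (fold 5.12) and 1351 bp in BTSC (fold 4.0), and of the NSC peak 96.8% was covered in BTSC. The 2 peaks found in BTSC alone were 580 and 695 bp wide, with folds of 2.37 and 2.43, at percentiles 3.52 and 5.90 of the list; the first lay over the neighbouring gene Atic. Chromosome 1 as a whole had 1.66 times as many acetylated bp in BTSC, and 54.3% of its genes passed the 1.5-fold rule in that direction. Relative to its chromosome the ratio of Fn1 was 0.912. It was 1.09 with peaks of −log10 q of at least 5 and 1.44 with peaks nearest to Fn1, so the call was lost in each case. The only TLX peak was in BTSC (71540381 to 71540876, fold 5.98, percentile 70.3), 44597 bp from the gene, nearest to Atic and outside H3K27ac of both cultures. TLX within 50 kb in BTSC only was seen for 0.827% of all genes.

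Cd44 encodes the hyaluronan receptor used as a surface marker of the mesenchymal state. The gene (chromosome 2, 102811141 to 102901669) had an acetylated start of nearly the same width in both cultures, 1066 bp in NSC (fold 6.13) and 980 bp in BTSC (fold 6.03). The gene body held 4786 acetylated bp in NSC against 4111 bp in BTSC. The summed window was higher in BTSC (8703 against 6464 bp) through peaks over the neighbouring gene Slc1a2, which encodes an astrocyte glutamate transporter. With only the peaks nearest to Cd44 the order turned, at 4922 bp in NSC and 4250 bp in BTSC. No TLX peak lay within 50 kb; the nearest was 96661 bp from the gene in NSC and 65088 bp in BTSC.

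Timp1, which encodes a secreted inhibitor of matrix metalloproteinases, lies on the X chromosome (20870166 to 20874737). It had no H3K27ac within 20 kb of its start in either culture, the nearest peak being 20612 bp away in NSC and 20692 bp in BTSC. The 3000 bp in NSC and 3239 bp in BTSC within its window lay over Araf and Syn1. The nearest TLX peak was 2706565 bp away in NSC and 7830551 bp in BTSC. Timp1 and Tgfbi were thus the 2 genes without H3K27ac at a start in either culture.

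**Figure D4:**
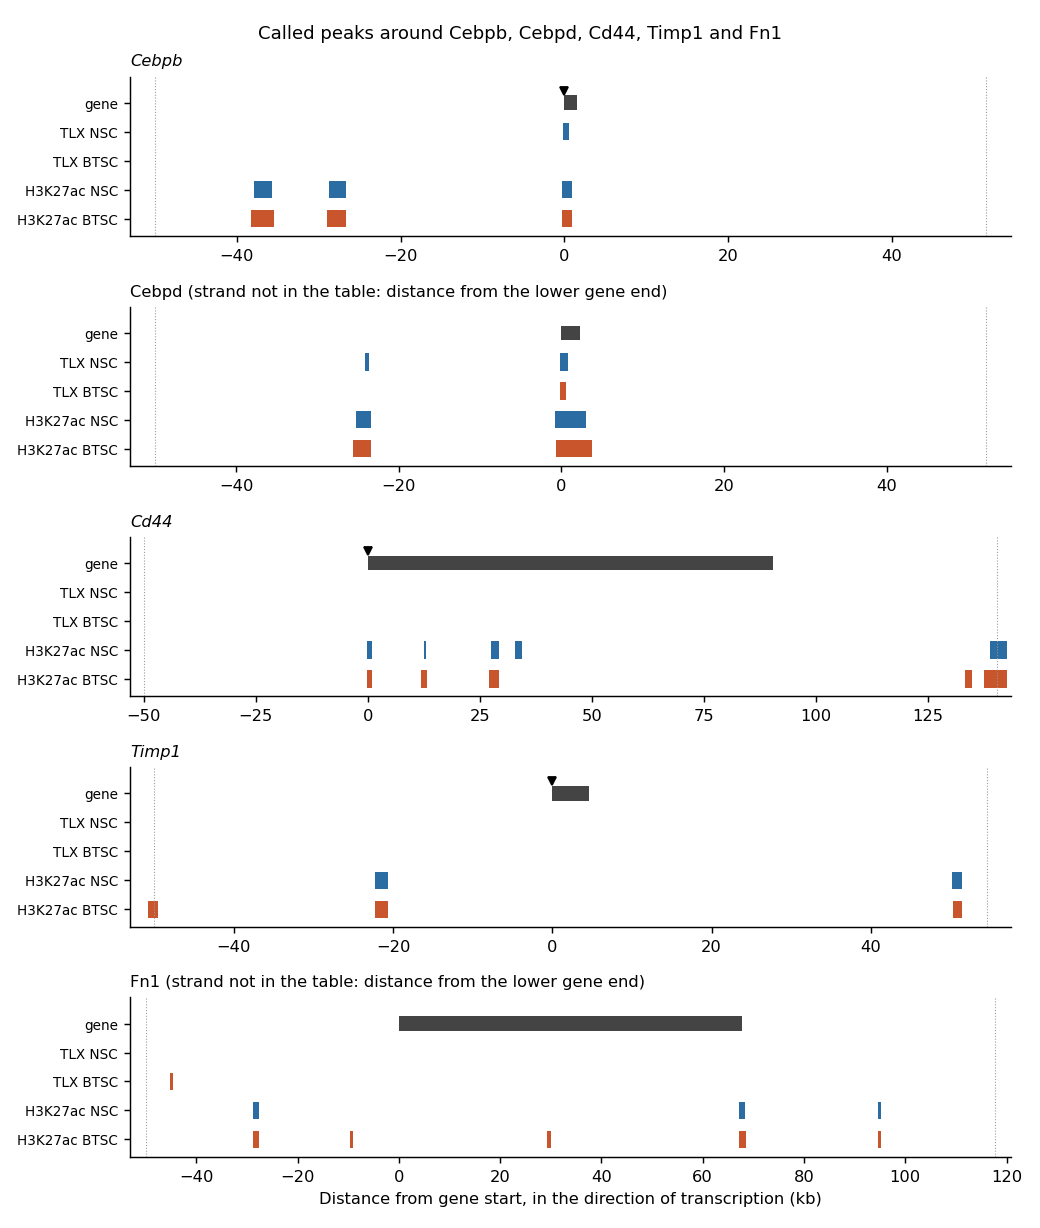
Called peaks around Cebpb, Cebpd, Cd44, Timp1 and Fn1, drawn as for the first 4 genes; for Cebpd and Fn1, whose strand the table does not give, distance runs from the lower gene end. H3K27ac peaks at the starts recur in both cultures except at Timp1, and the TLX peak of Cebpd is in both lists.

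**Figure D5:**
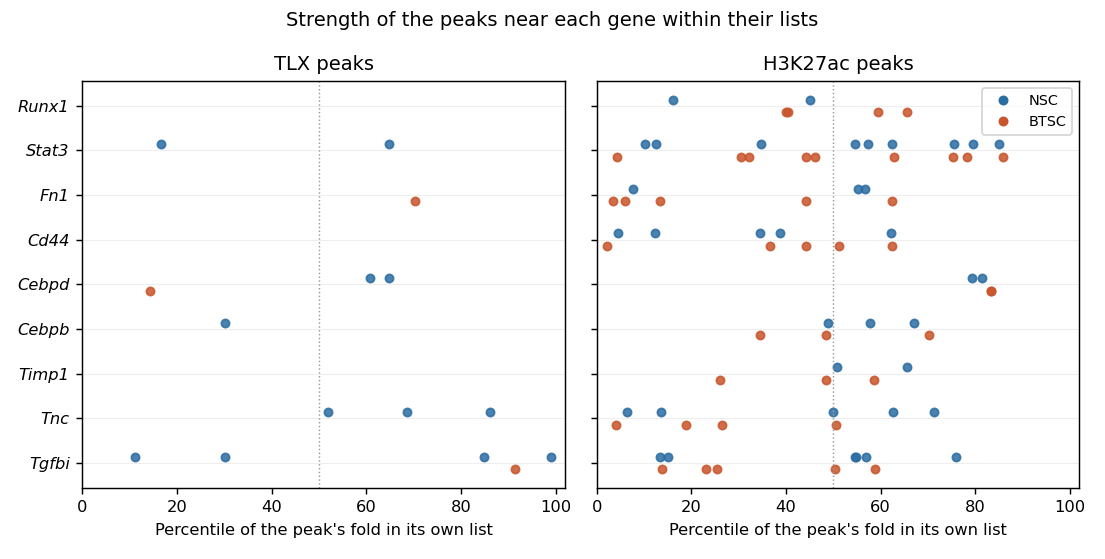
Each point is a called peak near the gene, placed by the percentile of its fold within its own list, TLX on the left and H3K27ac on the right, NSC in blue and BTSC in red; the dotted line is the list's middle. TLX peaks of Tgfbi reach percentiles 99.0 in NSC and 91.5 in BTSC, and the H3K27ac peaks of Cebpd lie between percentiles 79.2 and 83.4.

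Other genes of the mesenchymal programme were read by the same rules. Of 12 further transcription factors, 11 had TLX within 50 kb in NSC, against 42.1% of all genes, and 2 in BTSC, Yap1 and Zbtb18, against 10.2%. H3K27ac was at least 1.5-fold more in BTSC at 3 of them and in NSC at 1, near the 19.6% and 12.5% of all genes. The 3 were the NF-κB subunit gene Relb (22131 and 34082 bp in NSC and BTSC), and Wwtr1 (10437 and 16112 bp) and Yap1 (10256 and 15864 bp), which encode the Hippo coactivators TAZ and YAP. More in NSC was seen at Runx2 (4392 and 2363 bp), so that Runx2 and Runx1 differed in direction. The list's median ratio of 1.25 compares with 1.08 over all genes.

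Upstream of STAT3, 7 of 10 genes of IL-6 family signalling had TLX in NSC and 0 in BTSC, against 42.1% and 10.2% of all genes. Acetylated bp were at least 1.5-fold more in BTSC at 3 of the 9 genes compared and more in NSC at 0, against 19.6% and 12.5% of all genes. These were the kinase gene Jak1 (3170 and 7142 bp), the cytokine gene Lif (9582 and 17021 bp), whose start was acetylated in BTSC only, and Il6, listed at 0 bp in NSC against 2626 bp in BTSC. The median ratio was 1.32 over the 8 genes compared that had acetylated bp in NSC, which leaves out Il6, against 1.08 over all genes. Socs3, the feedback inhibitor of the pathway, had 4 TLX peaks in NSC and 18394 and 15649 bp.

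Among 20 further effector genes, 10 had TLX in NSC and 2 in BTSC, near the 42.1% and 10.2% of all genes. The 2 were Lgals1 and Chil1, the mouse counterpart of the marker gene CHI3L1. Of the 16 compared, 3 had more H3K27ac in NSC and 2 in BTSC, against 12.5% and 19.6% of all genes. Those with more in NSC were Mmp14 (10123 and 2771 bp) and Mmp2 (8470 and 3789 bp), which encode matrix metalloproteinases, and Anxa1 (1534 and 953 bp). More in BTSC was seen at the TGF-β receptor gene Tgfbr2 (3511 and 22229 bp) and at Plau, encoding urokinase (4883 and 12391 bp). The list's median ratio was 0.856. Starts were acetylated at 11 of the 20 in NSC and 7 in BTSC, against 52.8% and 52.2% of all genes; Mmp2, Mmp14 and Thbs1 were among those with an acetylated start in NSC only.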

How the data were processed

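The 4 peak lists used were deposited by the authors, each from 1 library, in narrow form for TLX and broad form for H3K27ac. The submitters' processing notes name bcl2fastq 2.17.1.14, Bowtie and ChIPseeker and the build mm10. Which program called the peaks is not given in the sources used here. Each deposited peak has a fold enrichment (a linear ratio over background), −log10 p and q values, and a score (10 times the −log10 q), all as the authors made them. Members and gene lists were chosen with earlier results of these data known. Genes came from the RefSeq table of GRCm38.p6, which gives no exons, and gene starts from its promoter table. Peaks were assigned by an overlap of 1 bp with the gene body extended by 50 kb, and H3K27ac-covered bp were counted there, clipped at the window ends. A peak can belong to several genes. Broad peaks have no summit, so midpoints were used. Windows of 10 and 100 kb, a fold of 2, a −log10 q of at least 5, joined or nearest-gene peaks, lists cut to equal length, summits in place of overlaps, 2.5 kb around starts, the chromosome's ratio and Fn1 left out were tried as alternatives. No genome was used, so sequence inside peaks was read only where a peak lay over a promoter of the promoter table. Intervals are exact Clopper-Pearson and cover counting error only. All 9 members are named; of the other lists, genes with TLX in BTSC or past the 1.5-fold rule are, and Socs3, Thbs1 and the further Timp and C/EBP genes were added after their values were seen. Some genes of these lists are counted but not reported here. Interval counts were tested on simulated data. Python 3.11.15, pandas 2.3.3, numpy 2.4.6, scipy 1.17.1 and matplotlib 3.10.9 were used.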

Additional observations from a re-analysis of the deposited data

How the results depend on the processing

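No paired analysis was possible because each group has 1 library and no replicate number. Of the 62 values recomputed for the counts and shares over the 9 genes, 48 stayed within 1.5 times the reported count or inside its interval and 14 did not. The interval for the share of acetylated bp covered in both cultures treats neighbouring bp as independent and is too narrow. Shifts of that share are therefore counted among the 14 even where they are small. With a window of 10 kb, the NSC list had 6 TLX peaks near the genes in place of 12, and BTSC had 1 peak at 1 gene in place of 3 at 3. Counting a TLX peak only for the gene with the nearest end also left BTSC with 1 peak at 1 gene. With the NSC TLX list cut to the length of the BTSC list, 3 peaks at 2 genes remained. A fold of 2 left 1 gene with more H3K27ac in BTSC, Runx1, and 1 with more in NSC, Tgfbi, so Tnc, Stat3 and Fn1 lost their call. Relative to the chromosome, 1 gene had more in BTSC: Stat3 stood at 1.4 and Fn1 reversed to 0.912. Shares over all genes were not computed for these alternatives, so the counts have no background beside them. The share of acetylated bp covered in both cultures, 44.1%, was 37.4% at −log10 q of at least 5, 37.8% and 49.4% with windows of 10 and 100 kb, and 43.3% without Fn1. At 1.5-fold, Runx1, Tnc and Tgfbi kept their call in 7 of 7 alternatives, Stat3 in 6 and Fn1 in 4. The fold of 2 is not among the 7. Joining peaks within 1 kb changed none of the lengths of the 9 genes, and cutting the BTSC H3K27ac list changed only that of Cd44. The window of 100 kb left Runx1 and Fn1 unchanged. Where the lengths were unchanged, a kept call only repeats the main result. Peaks of the nearest gene alone and an H3K27ac list cut to equal length were chosen after seeing the data. Depth is unknown and limits every absence. The cause of these changes was not tested.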

Other observations

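The closest relatives of the 9 genes had more H3K27ac in BTSC at 5 of 12 and more in NSC at 0, against 19.6% and 12.5% of all protein-coding genes. Tnr, the tenascin of perineuronal nets, had 42872 bp in NSC and 93915 bp in BTSC and lies on chromosome 1. Stat5a (6955 and 15574 bp) and Stat5b (12141 and 22941 bp) adjoin Stat3, and their windows share peaks with it and with each other. Runx3 had 3158 and 6184 bp. The metalloproteinase inhibitor genes Timp2, Timp3 and Timp4 had ratios of BTSC to NSC between 0.754 and 0.863, and Timp3 had 3 TLX peaks in NSC and 2 in BTSC. The C/EBP genes Cebpa, Cebpg and Cebpe had ratios between 1.03 and 1.25, beside 1.12 for Cebpb and 1.20 for Cebpd.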
